A study of Homo sapiens with 2 samples.

Results

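The CHD (chromodomain helicase DNA-binding) genes were examined in an RFX6 ChIP-seq peak list of MHCC-97H cells. The 9 members, CHD1 to CHD9, were taken by name, and every interval in or within 25 kb of each gene was looked up among 5019 distinct intervals. The family was selected on the highest score of the list, which lies beside CHD4, so that score and the number of intervals at CHD4 are given as a description and were not tested. In total, 10 of the 5019 intervals were found, at 5 of the 9 genes, out of 20037 protein-coding genes in the gene table. MHCC-97H is a human hepatocellular carcinoma (HCC) line, and the cells carried HA-tagged RFX6, a winged helix transcription factor of the regulatory factor X family, at raised levels. The series comprised 2 samples of this line, 1 HA-RFX6 ChIP and 1 input, and the values come from the ChIP sample alone. There was no replicate, and no precipitation from cells without HA-RFX6 was analysed here, so no test across samples was possible. Read depth was unknown.

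CHD proteins are chromatin remodelers. They carry a pair of chromodomains and a SNF2-type ATPase motor, which slides or evicts nucleosomes. Members of subfamily I (CHD1 and CHD2) act at transcribed genes. Members of subfamily II (CHD3, CHD4 and CHD5) serve as the motor of the NuRD complex, which joins remodeling to histone deacetylation. Subfamily III comprises CHD6, CHD7, CHD8 and CHD9, of which CHD7 is mutated in CHARGE syndrome and CHD8 is linked to autism and restrains β-catenin signalling.

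The DNA beneath the intervals was examined first. Reference windows of 300 bases (250 before and 50 from an annotated transcription start; RefSeq, GRCh38.p14) were overlaid with the intervals. Windows were at hand for 6 of the 9 CHD genes, namely CHD1, CHD2, CHD3, CHD4, CHD8 and CHD9. The following 4 windows are printed 5′ to 3′ in the direction of transcription, with the bases inside an interval in capitals. LOC105369631 is a non-coding RNA gene whose start lies under the highest score of the list (chr12:6613836-6614135, plus strand). NOP2 neighbours the far end of CHD4 (chr12:6568242-6568541, minus strand). CHD8 is shown for its internal start (chr14:21437226-21437525, minus strand). CHD4 is shown because its annotated start lay beside an interval and not under it (chr12:6606402-6606701, minus strand).
LOC105369631: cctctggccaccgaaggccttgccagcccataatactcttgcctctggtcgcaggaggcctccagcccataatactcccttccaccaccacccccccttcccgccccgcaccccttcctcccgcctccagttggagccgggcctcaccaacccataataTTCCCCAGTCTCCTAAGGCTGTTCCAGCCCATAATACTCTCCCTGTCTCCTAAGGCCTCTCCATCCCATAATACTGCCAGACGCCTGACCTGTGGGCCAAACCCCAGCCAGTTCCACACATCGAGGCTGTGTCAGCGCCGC
NOP2: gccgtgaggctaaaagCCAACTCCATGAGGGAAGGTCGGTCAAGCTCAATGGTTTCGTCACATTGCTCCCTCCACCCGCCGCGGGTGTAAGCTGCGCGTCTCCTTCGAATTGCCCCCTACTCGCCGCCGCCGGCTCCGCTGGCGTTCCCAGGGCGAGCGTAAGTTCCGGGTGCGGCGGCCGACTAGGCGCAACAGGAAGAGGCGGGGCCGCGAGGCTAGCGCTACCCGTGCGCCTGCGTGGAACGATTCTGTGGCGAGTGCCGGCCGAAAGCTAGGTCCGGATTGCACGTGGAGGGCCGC
CHD8: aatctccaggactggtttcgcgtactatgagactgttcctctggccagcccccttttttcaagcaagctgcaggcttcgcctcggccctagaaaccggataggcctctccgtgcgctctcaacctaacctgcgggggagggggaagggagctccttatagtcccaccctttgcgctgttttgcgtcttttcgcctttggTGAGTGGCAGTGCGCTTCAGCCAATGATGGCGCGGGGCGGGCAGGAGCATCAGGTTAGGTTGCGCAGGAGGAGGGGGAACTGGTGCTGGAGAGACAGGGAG
CHD4: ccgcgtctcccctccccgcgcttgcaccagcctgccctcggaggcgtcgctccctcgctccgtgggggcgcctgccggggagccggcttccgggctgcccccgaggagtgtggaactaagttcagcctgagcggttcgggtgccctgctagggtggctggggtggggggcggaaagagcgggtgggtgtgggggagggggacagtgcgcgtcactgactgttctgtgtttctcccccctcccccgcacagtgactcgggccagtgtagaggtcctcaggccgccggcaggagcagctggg

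Of the 300 bases, 141 were covered at LOC105369631, 284 at NOP2, 101 at CHD8 and 0 at CHD4. The start itself was inside the interval at LOC105369631, NOP2 and CHD8. The window of CHD4-AS1, a non-coding RNA gene divergent from NOP2, overlaps that of NOP2 on the opposite strand, and all of its 300 bases were covered, with its start. The GC content of the windows was 61.3% for LOC105369631, 66.7% for NOP2, 67.0% for CHD4-AS1, 59.7% for CHD8 and 71.7% for CHD4. By comparison, the median was 58.7% over all 35116 windows and 69.7% over the 2632 windows that an interval touched. The 4 windows with a covered start were thus below the latter median.

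**Figure D1:**
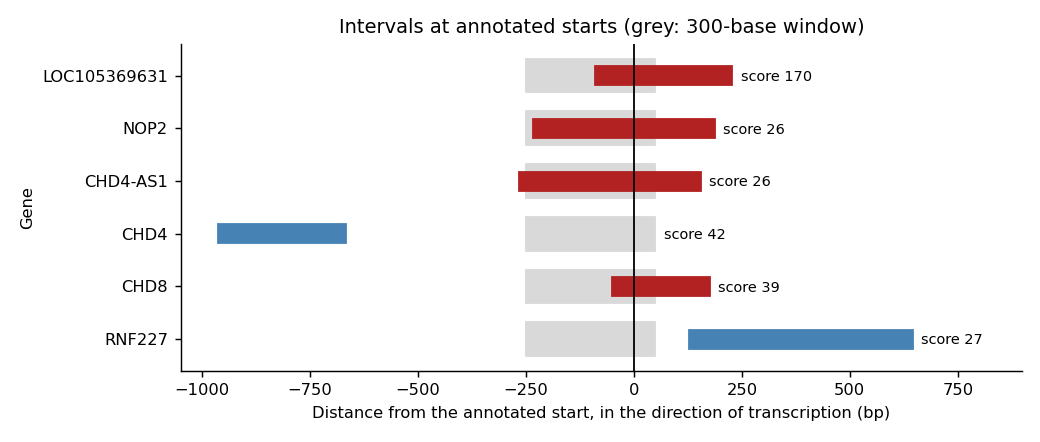
Position of intervals (coloured bars) relative to annotated starts (vertical line at 0), in bp along the direction of transcription; grey boxes are the 300-base windows and the score is written at the right. Red bars (LOC105369631, NOP2, CHD4-AS1, CHD8) hold the start, and blue bars (CHD4, RNF227) do not; NOP2 and CHD4-AS1 share 1 interval.

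The windows were searched on both strands for GTTGCC, which is 1 arm of the site bound by RFX proteins, and for the X-box, in which both arms are paired in inverted order, written as 14 letters with 5 of them free. Neither pattern was found in any of the 9 windows of the 6 CHD genes, nor in those of LOC105369631, NOP2, CHD4-AS1 or RNF227. Among all 35116 windows, 12.2% held GTTGCC and 0.834% the X-box, and among the 2632 touched by an interval the shares were 12.96% and 1.03%. Only these windows were read, so bases of an interval outside them were not searched.

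Common promoter letters were found in part of the windows. CHD8 had CCAAT and the GC box GGGCGG, at -31 and -17 with the start counted as 0, and both lay inside the interval. The CHD4-AS1 window likewise had both, at -184 and -131, inside its interval. The LOC105369631 window had 1 GC box, at -150 and outside its interval, and no CCAAT, and NOP2 had neither. In windows that no interval reached, CHD4 and RNF227 had 1 GC box each, and CHD1 had 4 with 1 CCAAT. The 4 CHD9 windows, also not reached, had 4, 1, 0 and 0 GC boxes with 0, 2, 1 and 0 CCAAT. No such letters were found at CHD2 or CHD3. The GC box was present in 45.0% of all windows and in 81.6% of those touched by an interval, CCAAT in 34.6% and 33.3%, respectively. The E-box CACGTG (7.26% and 11.1%) was found at NOP2 and CHD4-AS1, where it is the same site, at RNF227, and in 1 of the 4 CHD9 windows. The NRF1 motif (1.24% and 2.39%) was found in none of these windows.

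The LOC105369631 window showed a repeated element, which was noticed by reading it. The letters CCCATAATA occurred 5 times on its plus strand, beginning at -224, -185, -100, -64 and -27. The last 2 copies lay inside the interval of score 170, and the third ended just before its first base. The steps between copies were 39, 85, 36 and 37 bases. Of the 35116 windows, 30 (0.0854%) held these letters on either strand, and this was the only one with 2 or more copies. It was also the only window with these letters among the 2632 touched by an interval (0.0380%). The letters were taken from this window, so these counts describe it and are not a test. The remainder of the interval, past the end of the window, was not read.

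Among the 9 genes, CHD4 had 5 intervals within 25 kb, CHD5 had 2, CHD2, CHD3 and CHD8 had 1 each, and CHD1, CHD6, CHD7 and CHD9 had none. By subfamily, this was 1 of 2 genes in subfamily I, 3 of 3 in subfamily II with 8 of the 10 intervals, and 1 of 4 in subfamily III. The 5 at CHD4 include the interval on which the family was selected, so this split is a description and was not tested. Of the 10 intervals, 4 overlapped a CHD gene and 6 lay outside. The share of genes with an interval within 25 kb was 5 of 9 (55.6%), and 31.1% of all protein-coding genes had one. CHD genes are long, from 27.96 kb (CHD3) to 272.5 kb (CHD9). Among the 9258 protein-coding genes at least as long as CHD3, the share was 30.5%. When an overlap with the gene or the 2 kb beside it was required, 3 of 9 CHD genes (33.3%) remained, namely CHD4, CHD5 and CHD8, compared with 20.3% of all and 23.3% of the long protein-coding genes. An interval midpoint within 1 kb of an outer end of the gene was found for CHD4 alone, that is 1 of 9 (11.1%), compared with 15.5% and 17.0%. Since 1 gene makes up 11.1% of the family, it is not shown to differ from other genes under any of these rules.

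**Figure D2:**
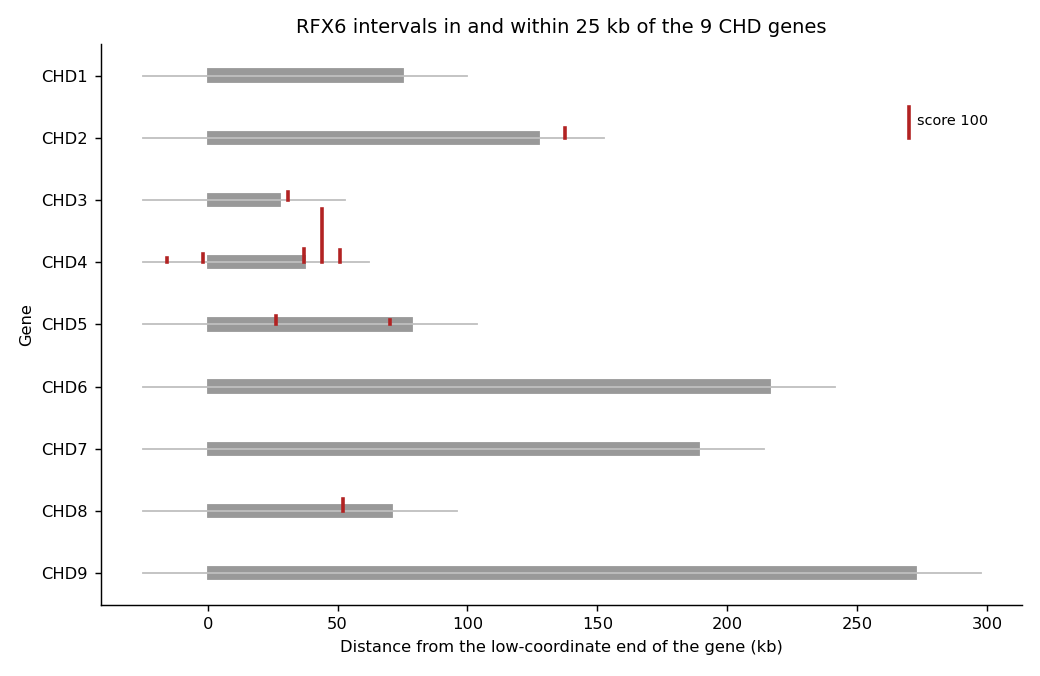
The 9 CHD genes (thick grey bars) with 25 kb on each side (thin lines), placed by the distance in kb from the low-coordinate end; red strokes mark intervals, with heights in proportion to the score (key at the right). CHD4 has 5 strokes, including the tallest (170), and CHD1, CHD6, CHD7 and CHD9 have none.

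CHD4, the main NuRD ATPase, had the most intervals. The gene lies on chromosome 12 from 6570082 to 6607379 on the minus strand, so that its high-coordinate end is the start end. Having 5 or more intervals within 25 kb was seen in 240 of 20037 protein-coding genes (1.20%) and in 0.897% of those at least as long as CHD3. The count at CHD4 includes the interval on which the family was selected, so these shares are no test of it. The interval at the gene itself, chr12:6607118-6607415, spanned the start end with its midpoint 113 bp from it. It was 298 bp wide and had a score of 42 (rank 1069 of 5019, percentile 77.2). The start given in the window table is farther inside the gene at 6606451, and the interval ran from -964 to -667 relative to it. It also overlapped LOC124902867, a non-coding gene on the opposite strand.

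The highest score of the list, 170, belonged to chr12:6613995-6614313, which was 319 bp wide. The next highest score was 126. The interval was 6616 bp upstream of the start end of CHD4 and 4522 bp from LPAR5, which encodes a receptor for lysophosphatidic acid. It overlapped no protein-coding gene. The end of LPAR5 that faces it is the far end, since LPAR5 is on the minus strand with an annotated start 17495 bp from the interval midpoint. By contrast, the start of LOC105369631 was 68 bp from the midpoint and inside the interval. The nearest annotated start was therefore that of a non-coding gene, and the list alone does not tie the interval to CHD4 or to LPAR5.

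The other 3 intervals near CHD4 were at neighbours. The interval chr12:6568104-6568525 was 422 bp wide, scored 26 (percentile 33.2) and lay 1557 bp beyond the far end of CHD4. It held the start of NOP2, an RNA methyltransferase of the nucleolus, 23 bp from its midpoint, and the start of CHD4-AS1. The interval chr12:6621100-6621341, with a score of 39, lay inside both LPAR5 and LOC105369631, 13721 bp from CHD4. The interval chr12:6554354-6554555 scored 14 and lay inside IFFO1, 15527 bp from CHD4. Just beyond 25 kb were an interval of score 21 at the other end of LPAR5 (28566 bp) and a pair of intervals of score 33 at GAPDH and GAPDH-DT (35353 and 35795 bp).

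**Figure D3:**
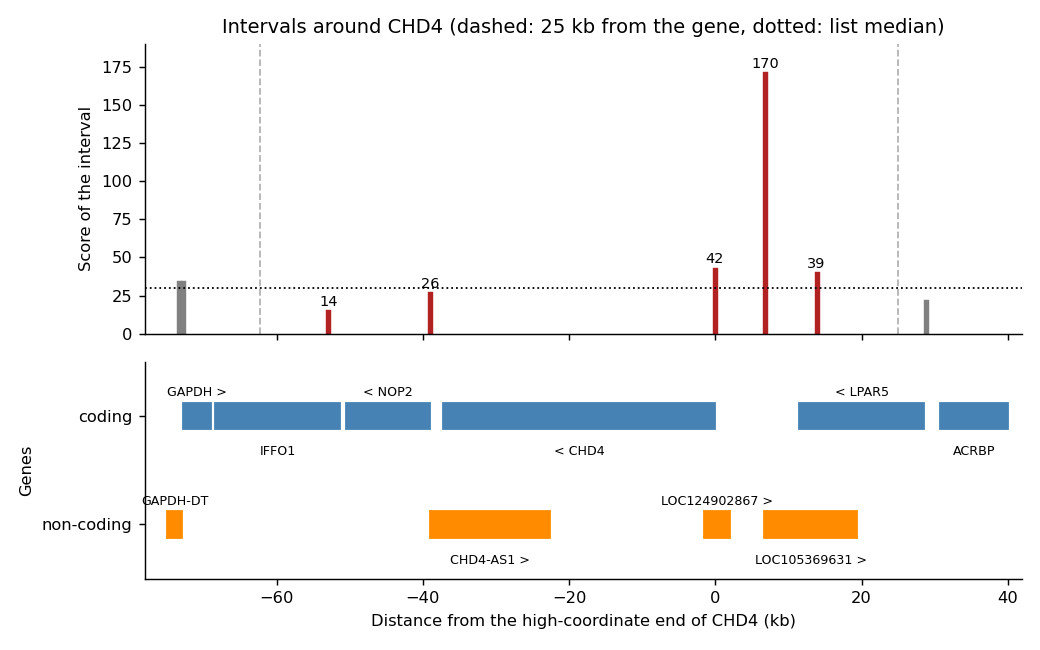
Upper plot, scores of the intervals around CHD4 against the distance in kb from its high-coordinate (start) end; red bars are within 25 kb (dashed lines) and grey bars outside, and the dotted line is the median score of the list, 30. Lower plot, coding (blue) and non-coding (orange) genes, with arrowheads for strand where it was given; the bar of 170 stands between CHD4 and LPAR5 at the start of LOC105369631.

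CHD8 showed a different arrangement. Its only interval, chr14:21437100-21437326, was 227 bp wide with a score of 39 (percentile 71.4). Measured by the outer ends of the gene (chromosome 14 from 21385199 to 21456123, minus strand), its midpoint was deep inside, 18910 bp from the start end and 52014 bp from the far end. However, it held an annotated internal start at 21437275, 62 bp from its midpoint, reaching from 51 bp upstream to 175 bp downstream. When annotated starts were used in place of outer ends, CHD4 and CHD8, 2 of the 6 CHD genes with a start, had an interval midpoint within 1 kb (background 16.3% of 15843 protein-coding genes). SUPT16H, which encodes a subunit of the histone chaperone FACT, lies 1180 bp from CHD8, and no interval lay within 2 kb of it.

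CHD5, a NuRD ATPase known mainly from the nervous system, had 2 intervals, both inside the gene and away from its ends. The interval chr1:6127980-6128242 scored 27 (percentile 34.01), with its midpoint 26324 bp from the low-coordinate end. The other, chr1:6171919-6172118, had its midpoint 8303 bp from the high-coordinate end, and its score of 13 and width of 200 bp equalled the lowest in the list. An interval of score 62 in RNF207 missed the limit of 25 kb, lying 25659 bp away. Whether the CHD5 intervals were exonic or intronic was not determined, as the gene table gives no exons.

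At CHD3 and CHD2, the interval lay inside a neighbouring gene. CHD3, the NuRD ATPase closest in kind to CHD4, had an interval 2889 bp from its high-coordinate end, which is its far end. This was chr17:7915644-7916161, the widest of the 10 at 518 bp, with a score of 27. It lay inside RNF227, a RING finger gene, and began 128 bp downstream of the RNF227 start. CHD2, linked to epilepsy, had an interval 9731 bp beyond its far end. This was chr15:93037727-93037950, with a score of 32, inside RGMA, which encodes a guidance molecule, and its midpoint was 35318 bp from the nearest start of RGMA. No interval lay at the start of either CHD gene.

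The 4 remaining members differed in how far away the nearest interval was. It was 60.8 kb from CHD6 with a score of 14, in LPIN3, and 175.4 kb from CHD9 with a score of 41, in AKTIP. For CHD1, which binds a histone mark of active promoters, the nearest interval was 3122 kb away, and for CHD7 it was 3685 kb away. Within 25 kb there was no other protein-coding gene at CHD1, CHD6 or CHD7 and 1 at CHD9, while CHD3 had 6, CHD4 and CHD8 had 3 each, CHD5 had 2 and CHD2 had 1. Without read depth, a gene with no interval cannot be told from one with too few reads.

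As a group, the 10 intervals had a median score of 29.5, compared with 30 for the whole list. Leaving out the interval of score 170, the highest was 42 and the median 27. Scores of 30 or more were seen in 5 of the 10. Their median width was 252.5 bp, compared with 272 bp in the list. All 10 were listed on a single line, whereas 18.4% of the 5019 intervals were listed more than once. An annotated start was held by 3 of the 10 intervals and by 1298 of the 5019 (25.9%). No start was at hand for CHD5 or IFFO1, so an interval inside these genes could not count as holding their start. By the outer ends of any protein-coding gene, 3 of the 10 midpoints lay within 1 kb, at NOP2, CHD4 and RNF227, compared with 60.8% of the 5019.

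**Figure D4:**
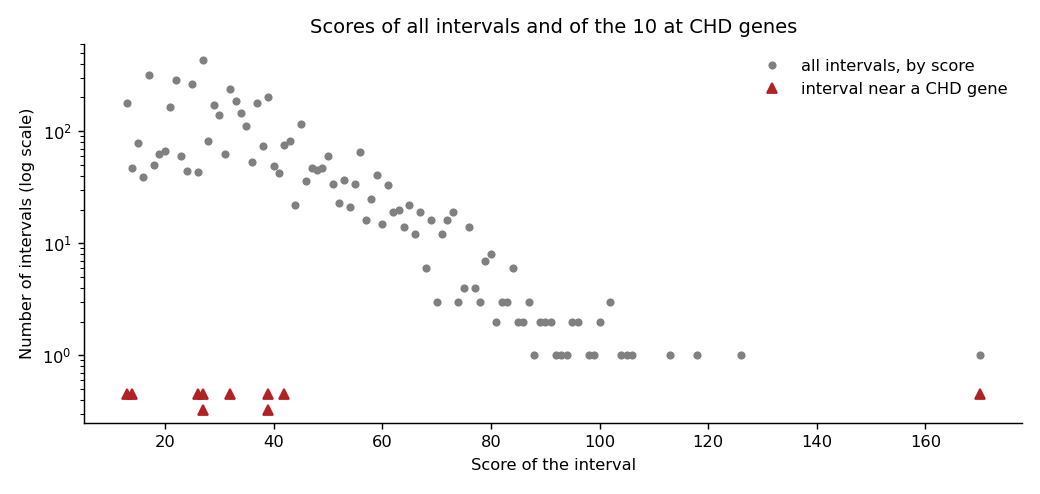
Number of intervals at each score (grey points, log scale) against the score, with red triangles for the 10 intervals in or within 25 kb of a CHD gene (triangles of equal score are stacked; their height has no meaning). Of the triangles, 9 lie between 13 and 42, and 1 stands at 170, above the next highest score of 126.

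Genes that work with the CHD proteins were then examined by the same rules. Of 12 NuRD partner genes, 4 (33.3%) had an interval in the gene or 2 kb beside it, where the share was 20.3% of all and 23.3% of the long protein-coding genes. They were HDAC2, a histone deacetylase, MTA2 and MTA3, scaffold subunits, and MBD3, a methyl-CpG-binding domain protein. At HDAC2, the interval chr6:113971092-113971461 scored 59 (percentile 92.8) and its midpoint was 128 bp from an end. At MBD3, the interval within 1 kb of an end scored 34. At MTA2, a pair of intervals scored 27 and 17, and an end of EML3 was also within 1 kb. The interval of MTA3 scored 61 and lay 74672 bp from the nearest outer end. When annotated starts were used in place of outer ends, 4 of the 12 NuRD partners had an interval midpoint within 1 kb. Only the 4 genes named above had an interval by the 2 kb rule, so MTA3 is among them.

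Of 12 other CHD partners, 4 (33.3%) had an interval by the same rule (background 20.3%). The HP1 gene CBX5 had intervals of score 51 and 25 and shares this end with HNRNPA1. ADNP, which joins CHD4 in the ChAHP complex, had a score of 24, and WDR5, a partner of CHD8, had a score of 34. These 3 genes had the interval within 1 kb of an end. In the insulator gene CTCF, the interval scored 59 and lay 18466 bp from the nearest end. Of 23 other SNF2-type ATPase genes, 4 (17.4%) had an interval. INO80, EP400 and RAD54L2 had intervals near an outer end with highest scores of 59, 55 and 53. The CHD1L interval (score 37) lay 53176 bp from the nearest outer end. By annotated starts, 4 of the 21 genes of this list with a start had an interval midpoint within 1 kb, CHD1L among them. Thus each list had 3 genes with an interval at an outer end, which was 25%, 25% and 13.04%, and CHD4 was the only such member of the CHD family (11.1%). The share of all protein-coding genes was 15.5% and that of the long ones 17.0%, so the counts at an outer end lie near the background. Outer ends leave out internal starts. By annotated starts, the count was 3 of 11 for the other CHD partners and 2 of 6 for the CHD genes, where the background was 16.3% of 15843 protein-coding genes. Within 25 kb, an interval was found for 6 of 12 NuRD partners and 5 of 12 other CHD partners. Of the 23 other SNF2-type ATPase genes, 5 had one. By this rule the CHD genes had 5 of 9, where the share was 31.1% of all and 30.5% of the long protein-coding genes. The lists are short and their shares were not tested against each other.

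**Figure D5:**
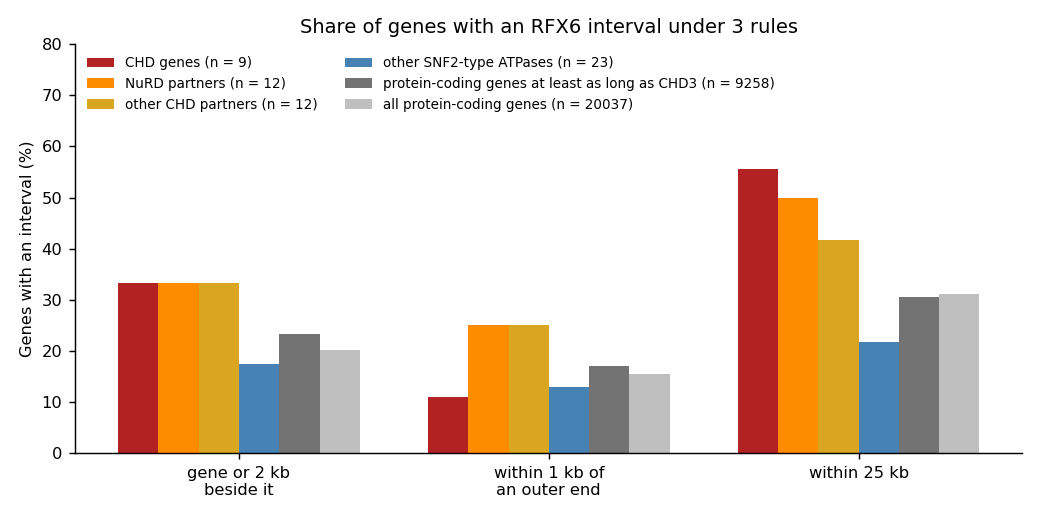
Percentage of genes with an RFX6 interval under 3 rules (groups of bars) for the CHD genes, 3 lists of related genes, the protein-coding genes at least as long as CHD3 and all protein-coding genes, with n in the key. The CHD bars are 33.3%, 11.1% and 55.6%, and those of all protein-coding genes 20.3%, 15.5% and 31.1%.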

How the data were processed

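ChIP was performed by the authors on formaldehyde-fixed MHCC-97H cells, and peaks were called with MACS2 2.1.0.2 at a stated q value of 0.01, according to the study's methods and the submitters' processing notes. The deposited file is a peak list with a whole-number score per line. What the score stands for is not given in the sources used here, nor are the aligner and the control used in calling. The lowest score was 13, and 1022 of the 6214 lines scored below 20. Whether every line meets the stated q value could therefore not be checked. The score was used only to rank intervals.

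The list held 6214 lines, and 1 line with split digits was put back together. Lines of identical position were counted once with the highest score, which left 5022 intervals. Of these, 3 mitochondrial ones were left out. Starts were taken as 0-based and printed 1-based. The processing notes name GRCh37, but the positions were matched to GRCh38.p14, since 60.8% of interval midpoints lay within 1 kb of a protein-coding gene end of that build and 1298 intervals held an annotated start.

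Gene and start positions came from RefSeq tables. Distances run from the nearest interval edge unless a midpoint is named; for the related lists they run from the midpoint. Percentiles give the share of intervals with a lower score, and ties take the best rank. The members and gene lists were chosen with earlier results of these data known. Named genes were the CHD genes, genes at their intervals, LPAR5, and listed genes with an interval at an end. Listed genes whose interval lay away from the outer ends, the use of annotated starts in place of outer ends and SUPT16H were added after values were seen. The same holds for GC content, the CCCATAATA repeat and the distant intervals. The counting was tested on simulated data. Python 3.11.15, numpy 2.4.6, pandas 2.3.3 and matplotlib 3.10.9 were used.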

Additional observations from a re-analysis of the deposited data

How the results depend on the processing

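The number of CHD genes with an interval within 25 kb was 5 and fell to 3 for scores of at least 30, as CHD3 and CHD5 dropped out. The number of intervals was 10, then 5 for scores of at least 30 and 19 within 50 kb. The number of CHD genes with an interval midpoint within 1 kb of an outer end was 1. It was 2 within 5 kb, where CHD3 was added, and 2 when annotated starts replaced the outer ends, an alternative chosen after seeing the data, where CHD8 was added. The other alternatives moved these counts, and that of genes overlapped within 2 kb, by at most 1.5 times.

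No paired analysis was possible because the single peak list came from 1 ChIP sample without replicates, which also left no replicate to leave out. Read depth was unknown, and no interval estimate is given for a score. Exons were not used here, and bases outside the reference windows were not read.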

Other observations

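The order of the deposited lines kept neighbours at CHD4 together. The intervals at the NOP2 start, at the CHD4 start end, inside LPAR5 and at the LOC105369631 start stood on lines 1379, 1380, 1381 and 1382. The IFFO1 interval, from the same neighbourhood, stood apart on line 92. Both CHD5 intervals were also consecutive, on lines 1624 and 1625. The reason for this order was not tested.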
